A study of Mus musculus with 12 samples.

Results

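The mouse microRNAs mmu-miR-101a-3p, mmu-miR-101b-3p, mmu-miR-26a-5p and mmu-miR-26b-5p, known to target Ezh2, were followed through a small RNA sequencing series (names are given below without the prefix for mouse). They were taken by name from the count table, where they are 4 of 1549 features. The cells were of 5 kinds, all labelled wild type. Androgenetic haploid embryonic stem cells (ESC), which carry a paternal chromosome set only, came as 2 libraries of line A129-2, 3 of line A129-6 and 2 of line A129-17. They were grown with LIF and the kinase inhibitors PD0325901 and CHIR99021, and enriched for haploid cells at intervals by Hoechst staining and sorting. R1, an established diploid mouse ESC line, gave 2 libraries, and spermatids (labelled RS), haploid germ cells stained with Hoechst and sorted from the testes of 129Sv males, gave 3. All libraries, R1 included, were made from sorted cells. The diploid state was represented by 1 line only. The sources used here do not give the culture medium of R1, the number of males or the passage of the lines.

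A microRNA guides Argonaute proteins to messenger RNAs whose 3′ untranslated region (UTR) pairs with its seed, bases 2 to 8 counted from its 5′ end, and lowers their stability and translation. Ezh2 is the catalytic subunit of Polycomb repressive complex 2, which methylates histone H3 at lysine 27 and keeps developmental genes silent in stem cells. In human cancer cells miR-101 is known to repress EZH2, and miR-26a is known to do so in mouse muscle precursors. Ezh2 messenger RNA was not analysed here.

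The 4 sequences are shown because they decide which reads can be told apart and which target sites can be shared. All 4 members matched an entry of RefSeq (GRCm38.p6), and the seed is in capitals.
miR-101a-3p: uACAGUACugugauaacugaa
miR-101b-3p: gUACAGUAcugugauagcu
miR-26a-5p: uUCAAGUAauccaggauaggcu
miR-26b-5p: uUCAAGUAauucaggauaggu
The 2 forms of miR-26 shared a seed. Counted from base 1 of miR-26a-5p, they differed by C11U and C21U over the 21 bases compared. In RefSeq miR-101b-3p began 1 base further 5′ than miR-101a-3p, so its bases 2 to 8 were moved by 1 base. Aligned to each other over 18 bases, the 2 forms of miR-101 differed by A16G, counted from base 1 of miR-101a-3p. The counts do not separate reads by their 5′ end. With so few differing bases, a read can be assigned to the wrong form, so each family was also tested as a sum.

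The sites that these seeds could pair with in mouse Ezh2 were read from the annotated 3′ UTR (402 bases, chromosome 6, minus strand, GRCm38). They are shown 5′ to 3′ on the transcript strand, with the match in capitals.
first miR-101 match, chr6:47530473-47530494: caggaaccttgaGTACTGTggg
second miR-101 match, chr6:47530418-47530439: tgaatttgcaaaGTACTGTaac
miR-26 match, chr6:47530284-47530305: ttgaataaagaaTACTTGAact
The complement of bases 2 to 8 of miR-101a-3p (the capitals of the first line) occurred 2 times, at UTR bases 59 to 65 and 114 to 120. The complement of the same bases of miR-101b-3p as annotated, TACTGTA, occurred 1 time and overlapped the second of these. The complement of the miR-26 seed (the capitals of the third line) occurred 1 time, at bases 248 to 254. The transcript strand alone was searched. Among 15298 annotated 3′ UTR stretches of the same length, 2.71% held the miR-101a-3p motif, 3.33% that of miR-101b-3p and 2.85% that of miR-26. These matches describe the letters and do not show binding.

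The members come from 5 precursor genes, placed here by GRCm38 annotation. Mir101a lies on the minus strand at chr4:101346945-101347027, inside an exon of the long noncoding RNA E130102H24Rik, and Mir101b on the plus strand at chr19:29135279-29135375, in an intron of Rcl1. All 3 miR-26 precursors lie on the plus strand within genes of the small C-terminal domain phosphatases. Mir26a-1 (chr9:119031796-119031885) is in an intron of Ctdspl and Mir26b (chr1:74394310-74394394) in an intron of Ctdsp1. Mir26a-2 (chr10:126995530-126995613) is within Ctdsp2 and shares 1 base with an annotated exon. The guide arm miR-26a-5p is the same from both of its precursors, so its count is a sum over the 2 loci.

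Total counts ran from 3709786 to 9102467 in the haploid libraries, were 7632174 and 9176080 in R1, and were 243714, 155232 and 166695 in RS. The lowest count of any member was 59, for miR-26b-5p in RS replicate 2, which corresponds to 380 CPM (counts per 1000000 counts of the library total) with an exact 95% binomial interval of 289 to 490. Such intervals cover counting error only. The summed CPM of 6 pluripotency markers of the miR-290 and miR-302 clusters was 19778 to 40148 in haploid libraries, 56250 to 61212 in R1 and 45.1 to 760 in RS. That of 5 germ cell markers was 2519 to 11174 in haploid libraries, 1047 to 1097 in R1 and 278031 to 379556 in RS. Most of the haploid sum was miR-871-3p, at 2101 to 10784 CPM in haploid libraries, 126 and 142 CPM in R1 and 25628 to 36636 CPM in RS. The germ cell marker miR-34c-5p stood at 52.0 to 305 CPM in haploid libraries, 246 and 267 CPM in R1 and 78280 to 287177 CPM in RS, and miR-881-3p at 103 to 626 CPM in haploid libraries, 675 and 687 CPM in R1 and 49180 to 172464 CPM in RS. In such bulk RNA, fewer cells with a microRNA and less of it per cell cannot be told apart.

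miR-101a-3p was scarce in all haploid libraries. Line A129-2 gave 211 and 161 CPM, line A129-6 gave 212, 249 and 96.0 CPM, and line A129-17 gave 123 and 109 CPM, against 6947 and 7551 CPM in R1 and 5527, 1836 and 3311 CPM in RS. No haploid library overlapped with R1 or RS. By abundance it ranked 23rd in both R1 libraries, 30th, 71st and 40th in RS, and 146th to 177th in the haploid libraries. miR-101b-3p had 286 and 252 CPM in A129-2 libraries, 278, 318 and 110 CPM in A129-6 libraries, and 146 and 162 CPM in A129-17 libraries, against 4154 and 4471 CPM in R1 and 886, 2319 and 1212 CPM in RS. Its order of kinds was the same, with R1 highest, RS between and the haploid lines lowest, and no overlap between the 3 kinds.

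miR-26a-5p was by far the most counted of the 4 members in every library. Its levels were 6707 and 5373 CPM in A129-2 libraries, 7705, 7982 and 4413 CPM in A129-6 libraries, and 5418 and 5945 CPM in A129-17 libraries, against 13459 and 14108 CPM in R1 and 35176, 15422 and 25406 CPM in RS. On this scale the kinds did not overlap either, but the order differed from that of miR-101, with RS highest. Scaled by the TMM method over all libraries, the kinds were no longer apart. The means were then 9292 ± 1440 CPM over the haploid lines, 10510 ± 363 CPM in R1 and 12014 ± 6365 CPM in RS (SD). The share of all features without overlap between kinds was not counted for any member. miR-26a-5p ranked 16th to 22nd in the haploid libraries, 14th and 15th in R1, and 6th, 11th and 9th in RS. miR-26b-5p had 387 and 328 CPM in A129-2 libraries, 282, 316 and 127 CPM in A129-6 libraries, and 160 and 215 CPM in A129-17 libraries, against 757 and 782 CPM in R1 and 1703, 380 and 918 CPM in RS. Both R1 libraries were above every haploid library, whereas RS spanned the R1 values and its lowest library fell among the haploid ones.

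**Figure D1:**
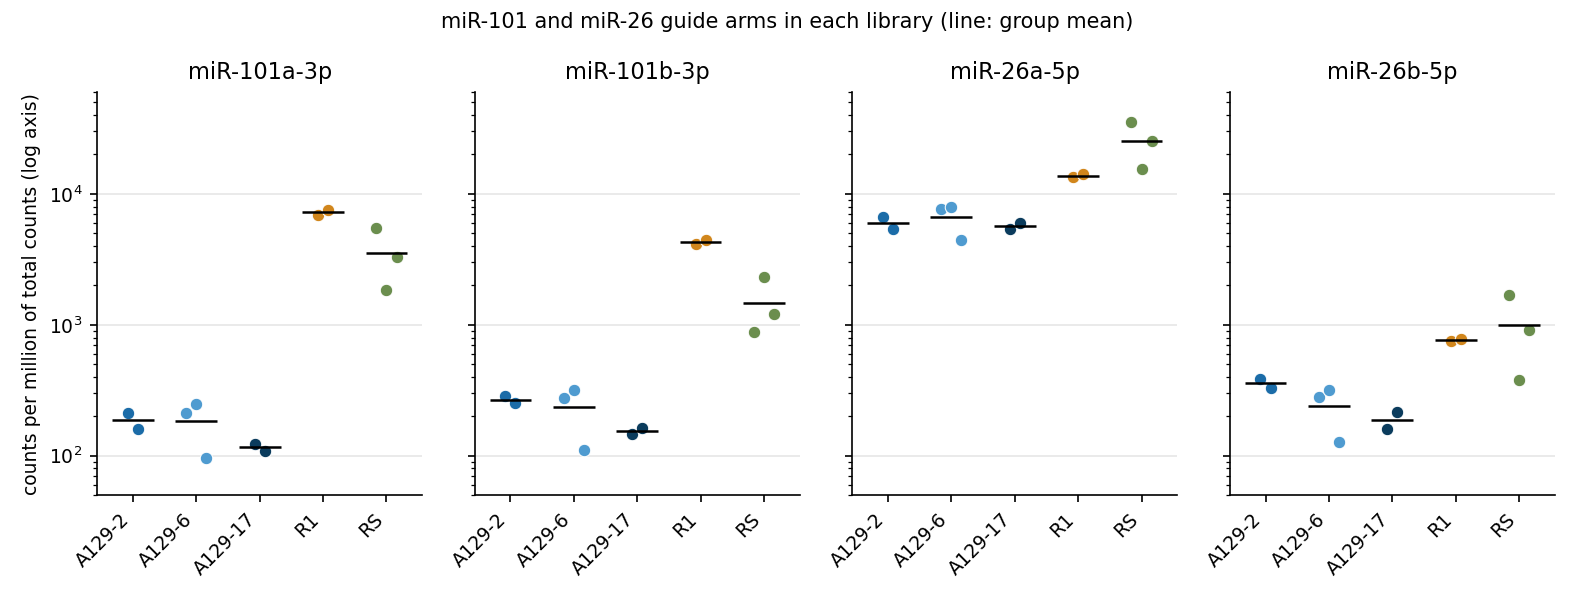
Level of each member in each library, in CPM of total counts on a log axis, with 1 point per library and a line at the group mean. The miR-101 members sit between 96.0 and 318 CPM in the 7 haploid libraries and between 4154 and 7551 CPM in the 2 R1 libraries, while the haploid and R1 levels of the miR-26 members lie closer together.

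The series set the haploid lines beside R1 to compare their small RNA profiles. Against R1, all 4 members were lower in the haploid lines (edgeR's quasi-likelihood test, Benjamini-Hochberg adjustment over 757 tested features). Of all tested features 70.5% passed, 35.3% as lower, so a decrease as such was common. The median log2 difference was -2.86 over the 4 members and 0.33 over all features tested. The 2 families differed in size of change. miR-101a-3p was 42.1-fold lower (log2 difference -5.40, SE 0.22, adjusted p = 2.83e-11), the 29th lowest of the 757 features. miR-101b-3p was 18.7-fold lower (log2 difference -4.22, SE 0.22, adjusted p = 3.48e-10). The summed miR-101 counts were 28.7-fold lower (log2 difference -4.84, SE 0.21, adjusted p = 8.95e-11).

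For miR-26 the decrease was small. miR-26a-5p was 2.06-fold lower (log2 difference -1.04, SE 0.20, adjusted p = 0.000236) and miR-26b-5p 2.82-fold lower (log2 difference -1.5, SE 0.22, adjusted p = 1.79e-05). Their sum was 2.09-fold lower (log2 difference -1.06, adjusted p = 0.000206). Scaled to the library sizes used in that fit, the sum averaged 6482 ± 818 CPM over the haploid lines (SD, n = 3 line means) and 13467 ± 20.8 CPM in R1 (SD, n = 2). The call did not hold under every choice of processing. With RS added to the fit, the median of all features moved by 0.85 on the log2 scale, miR-26a-5p stood at -0.19 (adjusted p = 0.747) and miR-26b-5p at -0.64 (adjusted p = 0.178).

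The direction of the miR-26 difference turned with a correction for base composition. Over the 609 tested features with a known sequence, features with more GC tended to have a higher log2 difference of haploid lines over R1 (Spearman's rho 0.535, Pearson's r 0.523, features within the same libraries). The median difference was -2.63 among 174 features with 30 to 45% GC, -0.22 among 242 with 45 to 55%, and 1.75 among 128 with 55 to 65%. All members belong to the first of these classes, at 33.3% GC for miR-101a-3p and miR-26b-5p, 42.1% for miR-101b-3p and 40.9% for miR-26a-5p. Beside features of like GC content, the miR-101 members were thus below the class median and the miR-26 members above it. The quartiles of that class were -3.93 and -0.10. Both miR-26 members lay between them, and both miR-101 members lay below the lower one, miR-101b-3p only just. After the trend was removed in each library, miR-101a-3p was still lower in the haploid lines (log2 difference -2.45) as was miR-101b-3p (-2.69). miR-26a-5p then came out higher in the haploid lines than in R1 (log2 difference 0.69, adjusted p = 0.00875), and so did miR-26b-5p (1.44, adjusted p = 6.75e-05). Whether the GC trend is technical or belongs to the cells was not tested.

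**Figure D2:**
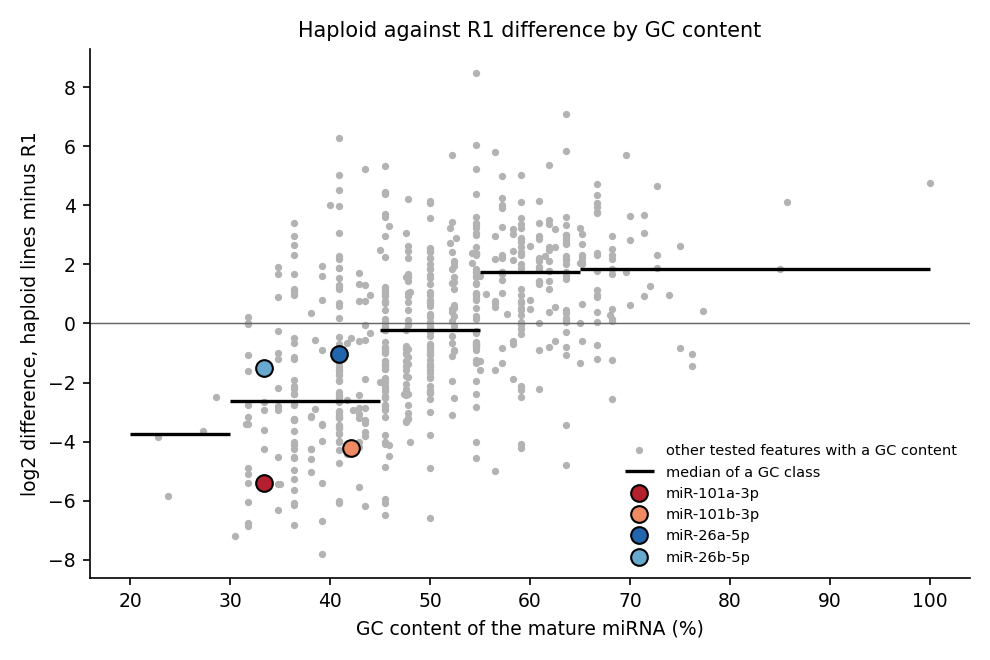
Log2 difference of the haploid lines minus R1 against the GC content of the mature microRNA in percent, for 609 tested features, with a line at the median of each GC class and the 4 members in colour. miR-101a-3p (-5.40) and miR-101b-3p (-4.22) lie below the class median of -2.63, and miR-26a-5p (-1.04) and miR-26b-5p (-1.5) lie above it.

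Ratios between members within a library need no scaling between libraries. miR-101a-3p and miR-26b-5p have the same GC content, and their ratio was chosen as a check after the values were seen. There were 0.659 ± 0.136 counts of miR-101a-3p per count of miR-26b-5p in the haploid libraries (SD, n = 7), 9.41 ± 0.339 in R1 (SD, n = 2) and 3.9 ± 0.830 in RS (SD, n = 3). The haploid libraries ranged from 0.492 to 0.788 and did not overlap with R1, at 9.18 and 9.65, or with RS, at 3.25, 4.83 and 3.61. For miR-101b-3p and miR-26a-5p, also close in GC content, the ratio was 0.0349 ± 0.00864 in the haploid libraries (SD, n = 7), 0.313 ± 0.00587 in R1 (SD, n = 2) and 0.0744 ± 0.0667 in RS (SD, n = 3). Here RS replicate 1, at 0.0252, fell within the haploid range of 0.0249 to 0.0468.

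The balance of the families was computed from the same counts, so it restates this contrast and is not separate support. miR-26 made up 94.5% ± 1.10 of the counts of the 4 members in the haploid libraries (SD, n = 7), 55.7% ± 0.583 in R1 (SD, n = 2) and 83.2% ± 3.51 in RS (SD, n = 3). The haploid libraries, from 93.2% to 95.8%, overlapped with neither R1, at 56.2% and 55.3%, nor RS, at 85.2%, 79.2% and 85.3%. An exact two-sided permutation test gave p = 0.0556 for haploid against R1 and p = 0.0167 for haploid against RS, the smallest values these numbers of libraries allow, and 0.125 for both after adjustment over the 9 shares and pairs tested. No share comparison passed that adjustment. These share tests treat the 7 haploid libraries as separate units, although libraries of the same line are not independent lines. For R1 against RS, the exact permutation test cannot go below p = 0.2.

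Within miR-101 the leading form changed. miR-101a-3p gave 43.0% ± 2.73 of the miR-101 counts in the haploid libraries (SD, n = 7), 62.7% ± 0.161 in R1 (SD, n = 2) and 67.9% ± 21.5 in RS (SD, n = 3). The haploid libraries lay between 39.1% and 46.6%, below both R1 libraries, at 62.6% and 62.8% (exact permutation p = 0.0556, adjusted 0.125). miR-101b-3p was thus the more counted form in all haploid libraries and the less counted in R1. miR-101a-3p is also the form with less GC. Its log2 difference against R1 was -5.40 without the GC correction and -2.45 with it. For miR-101b-3p these were -4.22 and -2.69, so after the correction miR-101a-3p no longer had the larger decrease. The shares are of uncorrected counts, and the cause of their shift was not tested. Within miR-26, miR-26a-5p gave 96.0% ± 1.19 in the haploid libraries (SD, n = 7), 94.7% ± 0.0518 in R1 (SD, n = 2) and 96.5% ± 1.11 in RS (SD, n = 3), with overlap between the haploid libraries and each of the others.

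**Figure D3:**
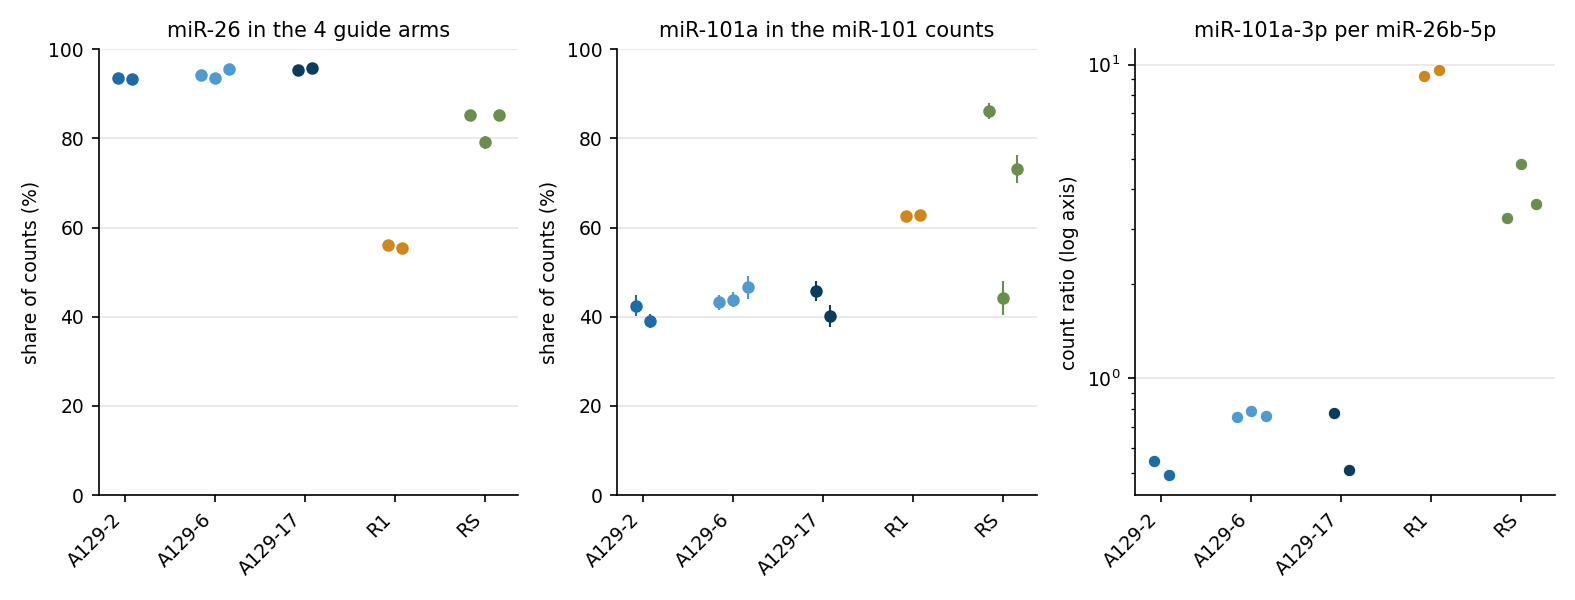
Left and middle, share of counts in percent with exact 95% binomial intervals, for miR-26 among the 4 members and for miR-101a-3p within miR-101; right, counts of miR-101a-3p per count of miR-26b-5p on a log axis, with 1 point per library. Haploid libraries hold 93.2% to 95.8% miR-26, above R1 and RS, and 0.492 to 0.788 counts of miR-101a-3p per miR-26b-5p, below R1 and RS.

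Each haploid line was also set against R1 alone. All 4 members were lower in each line, where 28.8% of features were lower in A129-2, 32.1% in A129-6 and 31.6% in A129-17. The log2 difference of miR-101a-3p was -5.38 (SE 0.35) in A129-2, -5.23 (SE 0.29) in A129-6 and -5.57 (SE 0.35) in A129-17. That of miR-101b-3p was -4.09, -4.15 and -4.43 in the same order of lines. miR-26a-5p gave -1.29, -0.94 and -0.91, and miR-26b-5p -1.19, -1.61 and -1.68. The smallest of these, of miR-26a-5p in A129-17, had an adjusted p of 0.00723. Without R1 replicate 1 it was -0.94 (adjusted p = 0.0612) and without R1 replicate 2 -0.94 (adjusted p = 0.0603), no smaller but no longer called. With upper-quartile scaling it shrank to -0.52 (adjusted p = 0.0885). With RS in the fit no miR-26 member was called in any single line.

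Between the haploid lines, 0 of 4 members passed an F-test over the 3 lines in edgeR, where 3.83% of features passed, and 0 of 4 had an unadjusted p under 0.05. The adjusted p values were 0.660 for miR-101a-3p, 0.688 for miR-101b-3p, 0.527 for miR-26a-5p and 0.421 for miR-26b-5p. The widest gap between 2 lines was that of miR-26b-5p, with a log2 difference of -0.49 (SE 0.29) between A129-17 and A129-2. Differences of a size within that error were not detectable with 2 or 3 libraries per line. The lowest library for all 4 members was A129-6 replicate 3, at 96.0, 110, 4413 and 127 CPM of total counts, and scaling by the TMM method, which gave that library a factor of 0.701 against 1.12 and 1.19 for the other libraries of its line, drew them together. On that scale miR-26a-5p averaged 6638 ± 309 CPM in A129-6 (SD, n = 3).

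The series also set the haploid lines beside spermatids, the haploid cells of the male germ line. Against RS, 65.4% of 806 tested features passed and 20.8% were lower in the haploid lines, and 2 of 4 members were lower. miR-101a-3p was 7.21-fold lower in the haploid lines (log2 difference -2.85, SE 0.34, adjusted p = 1.21e-07; -2.26 without RS replicate 1), and miR-101b-3p 1.99-fold lower (log2 difference -0.99, SE 0.30, adjusted p = 0.00522). Without RS replicate 2, which had the most miR-101b-3p, the second difference was -0.50 with an adjusted p of 0.129. The miR-101 sum was 4.22-fold lower (log2 difference -2.08, SE 0.31, adjusted p = 2.94e-06). The median log2 difference was -0.69 over the 4 members and 2.79 over all features.

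miR-26 did not pass against RS, at a log2 difference of -0.38 (SE 0.37, adjusted p = 0.368) for miR-26a-5p and -0.37 (SE 0.37, adjusted p = 0.372) for miR-26b-5p. TMM factors were 1.89 to 2.63 in RS and 0.470 to 1.03 in the haploid libraries. TMM-scaled in the fit of all libraries, miR-26a-5p averaged 9292 ± 1440 CPM over the haploid lines (SD, n = 3 line means) and 12014 ± 6365 CPM in RS (SD, n = 3). With total counts in place of TMM, it was lower in the haploid lines by a log2 difference of -2.05 (adjusted p = 3.82e-05), and with upper-quartile scaling by -1.97 (adjusted p = 6.26e-05). DESeq2 also called it lower (-0.77, adjusted p = 0.00639). With the GC correction miR-26b-5p was higher in the haploid lines, at 0.92 (adjusted p = 0.0251). The decrease of both miR-101 members passed under all of these choices.

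**Figure D4:**
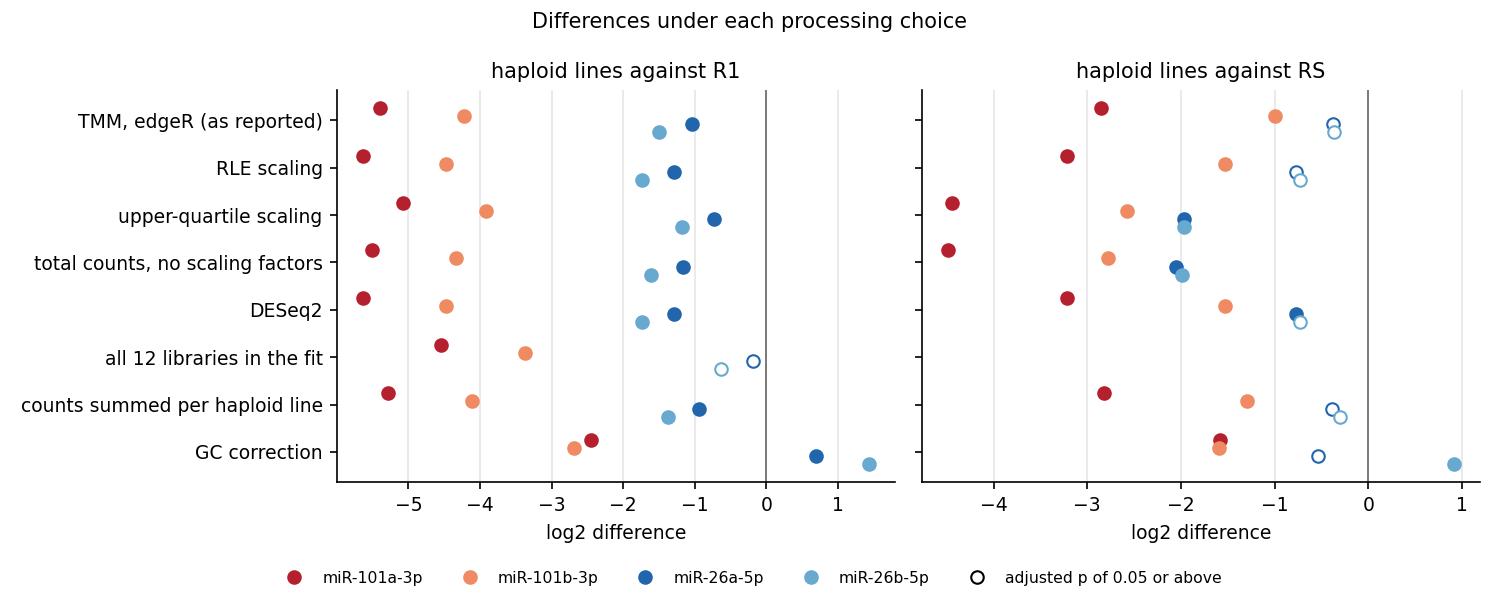
Log2 difference of the haploid lines minus R1 (left) and minus RS (right) for the 4 members under 8 processing choices, of which those that apply to a comparison are shown. Filled points have an adjusted p under 0.05. The miR-101 points stay left of 0 in both panels, whereas miR-26a-5p runs from -1.29 to 0.69 against R1 and from -2.05 to -0.38 against RS among the choices drawn.

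R1 and RS were compared with the haploid lines in the same fit. Of 806 features 53.0% passed and 33.6% were higher in R1, and 2 of 4 members were higher. miR-101b-3p was 5.18-fold higher in R1 than in RS (log2 difference 2.37, SE 0.40, adjusted p = 2.02e-05), and miR-101a-3p 3.23-fold higher (log2 difference 1.69, SE 0.46, adjusted p = 0.00336). The median log2 difference was 0.98 over the 4 members and 2.04 over all features. Of all features 53.3% had a lower difference than miR-101b-3p and 47.8% than miR-101a-3p, so both lay near the middle. Without RS replicate 2 the difference of miR-101b-3p was 3.72, without R1 replicate 1 it was 2.98, and with the GC correction it was 1.2, called in each case. The difference of miR-101a-3p stood at 2.29 to 2.67 when A129-2 replicate 2, A129-6 replicate 1 or any A129-17, R1 or RS library was left out. The call for miR-101a-3p was lost with upper-quartile scaling (0.69, adjusted p = 0.242), with total counts (1.03, adjusted p = 0.0985) and with only R1 and RS in the fit (1.28, adjusted p = 0.0865). miR-26a-5p stood at -0.19 (SE 0.50, adjusted p = 0.763) and miR-26b-5p at 0.26 (SE 0.49, adjusted p = 0.670). miR-26b-5p was called higher in R1 without RS replicate 2 (0.92, adjusted p = 0.0371), without A129-6 replicate 1 (1.2, adjusted p = 0.0346) and with no filter (1.35, adjusted p = 0.0171). Because the 3 kinds share libraries between comparisons, the values for one pair are not independent of those for another.

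The RS libraries differed among themselves, and the members did not vary together. miR-101a-3p, miR-26a-5p and miR-26b-5p were highest in replicate 1 and lowest in replicate 2, whereas miR-101b-3p was highest in replicate 2 and lowest in replicate 1. As a result miR-101a-3p formed 86.2%, 44.2% and 73.2% of miR-101 in replicates 1, 2 and 3. Markers of other cells of the testis varied as well. All 6 somatic and mesenchymal markers had counts in every RS library, and their summed level ran from 14102 to 66348 CPM in RS, against 5857 to 26767 CPM in the haploid libraries and 13393 to 15296 CPM in R1. miR-143-3p, a smooth muscle and mesenchymal microRNA, stood at 64215, 13535 and 36084 CPM in RS replicates 1, 2 and 3. For 5 blood and endothelial markers the sum was 1256 to 13327 CPM in RS, 350 to 847 CPM in the haploid libraries and 436 to 483 CPM in R1, and the endothelial miR-126a-3p stood at 12207, 792 and 6401 CPM in RS replicates 1, 2 and 3. None of these markers was at 0 in all RS libraries. miR-143-3p and miR-126a-3p had the same order over the RS libraries as miR-101a-3p and both forms of miR-26. So did miR-145a-5p, miR-199a-3p, miR-199a-5p, miR-214-3p, miR-451a and miR-223-3p, some of them with few counts. The order was not shared by miR-202-5p, miR-150-5p and miR-144-3p, the last with at most 1 count in an RS library. The testis somatic miR-202-5p stood at 86.2, 90.2 and 60.0 CPM in RS replicates 1, 2 and 3, and miR-150-5p of blood cells at 94.4, 32.2 and 114 CPM. The part of such cells in the RS levels was not tested.

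The other arms of the same precursors were rare, as was the paralog miR-101c, annotated on chromosome 9. miR-101a-5p, the passenger arm of Mir101a, had 0 counts in all 7 haploid libraries together, which allows up to 0.0651 CPM at 3 counts, and 9 counts in R1 and 1 in RS. miR-101c, whose 19 bases are contained in miR-101a-3p, had 1 count in the haploid libraries, 25 in R1 and 2 in RS, beside 7503, 122309 and 2184 counts of miR-101a-3p in the same kinds. miR-26a-1-3p had 0 counts in the haploid libraries, 3 in R1 and 0 in RS.

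miR-26a-2-3p, the passenger arm of Mir26a-2, was counted often enough to compare. It had 9 and 10 counts in A129-2 libraries, 20, 23 and 6 counts in A129-6 libraries, and 6 and 15 counts in A129-17 libraries, against 256 and 291 in R1. In CPM this was 0.824 to 3.66 in the haploid libraries, against 33.5 and 31.7 in R1. The arm was 16.0-fold lower in the haploid lines (log2 difference -4.00, SE 0.40, adjusted p = 3.43e-07). It kept this call under all 20 alternatives, at -1.56 with the GC correction (adjusted p = 0.00381). The guide arm differed by less, so that 2182 to 6221 counts of miR-26a-5p went with each count of miR-26a-2-3p in the haploid libraries, against 401 and 445 in R1. miR-26a-5p also comes from Mir26a-1, so this is not the arm ratio of a single precursor. RS had 0 counts of this arm, and R1 was at least 6.14-fold higher by pooled counts. miR-26b-3p, the passenger arm of Mir26b, had 25 counts over the haploid libraries and 41 in R1 (log2 difference -2.12, SE 0.76, adjusted p = 0.0210). A129-17 replicate 1 held 11 of the 25, and the call was lost under 5 of 19 alternatives, among them leaving out A129-2 replicate 1 (-1.98, adjusted p = 0.0613), R1 replicate 1 (-1.67, adjusted p = 0.317) or R1 replicate 2 (-2.50, adjusted p = 0.0938).

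A list of 11 further microRNAs described elsewhere as targeting Ezh2 was set beside the members, and 9 of the 11 had enough counts to be tested against R1. Of these 4 were higher in the haploid lines, 2 were lower and 3 did not pass. Of all features 35.3% were higher and 35.3% lower, 70.5% in either direction, so the share of the list called was near the background. The median log2 difference was 0.24 for the list and 0.33 for all features. The increases were those of miR-214-3p, a microRNA of mesenchymal cells (5.04, SE 0.47), and of let-7b-5p (3.62, SE 0.37), let-7a-5p (2.30, SE 0.29) and let-7c-5p (1.89, SE 0.27), members of a family that promotes differentiation. These 4 kept their direction and call under all 20 alternatives, including the GC correction. miR-138-5p (-1.57, SE 0.52) and miR-25-3p, of the miR-106b cluster (-1.07, SE 0.22), were lower, and both calls were lost with RS in the fit. That of miR-138-5p was also lost without R1 replicate 1 (-1.56, adjusted p = 0.12) and without R1 replicate 2 (-1.6, adjusted p = 0.11), at nearly the same size. The fitted values of miR-124-3p, miR-30d-5p and miR-98-5p were -0.82, 0.24 and -0.03. miR-124-3p was called lower with RLE scaling (-1.05, adjusted p = 0.0218), DESeq2 (-1.05, adjusted p = 0.0163) and no filter (-0.92, adjusted p = 0.0248). Leaving out the first A129-2 library (-1.09, adjusted p = 0.0165) or the second A129-17 library (-0.95, adjusted p = 0.0354) also gave a call. Line by line against R1, A129-6 (-1.32, adjusted p = 0.0170) and A129-17 (-1.22, adjusted p = 0.0440) had less of it, while A129-2 stood at 0.09 (adjusted p = 0.888). miR-217-5p, at 17 counts over the haploid libraries and 0 in R1, and miR-144-3p, at 1 and 2 counts, were not tested.

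Pooled over libraries, let-7a-5p stood at 872 CPM in the haploid libraries, 206 CPM in R1 and 10731 CPM in RS, against 163, 7277 and 3861 CPM for miR-101a-3p in the same kinds. miR-214-3p stood at 419 CPM in the haploid libraries, 13.9 CPM in R1 and 44.2 CPM in RS. Against RS, 10 of the 11 were tested in the haploid lines, of which 2 were higher, 4 lower and 4 did not pass, where 44.5% of all features were higher and 20.8% lower. With upper-quartile scaling or total counts these became 1 higher and 8 lower. In R1 against RS, 1 was higher, 5 were lower and 4 did not pass, where 33.6% of all features were higher and 19.4% lower. Upper-quartile scaling gave 0 higher and 9 lower there, and total counts 0 higher and 7 lower.

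Over the 12 libraries the log2 levels of the members followed each other within a family more than between families. Pearson's r was 0.871 for miR-101a-3p with miR-101b-3p and 0.753 for miR-26a-5p with miR-26b-5p. Between families it was 0.526 for miR-101a-3p with miR-26b-5p, 0.437 for miR-101a-3p with miR-26a-5p, 0.286 for miR-101b-3p with miR-26b-5p and 0.057 for miR-101b-3p with miR-26a-5p. These describe 12 libraries that fall into 3 kinds, share their scaling and are not independent. Among 285 features with a mean log2 CPM of at least 5, the levels most like those of miR-101a-3p were of miR-21a-5p (r = 0.941), miR-152-3p (0.941) and miR-200a-3p (0.937). For miR-101b-3p they were miR-450a-5p (0.963), miR-499-5p (0.946) and miR-9b-3p (0.945). For miR-26a-5p the values were lower, at 0.831 for miR-145a-5p, 0.772 for miR-23b-3p and 0.757 for miR-200c-3p, and over the 9 ESC libraries alone they were 0.386, -0.031 and 0.549. For miR-26b-5p they were miR-27b-3p (0.897), miR-23a-3p (0.840) and miR-27a-3p (0.817).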

How the data were processed

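The deposited table held raw counts of reads per microRNA for 12 libraries, not normalised by the authors. Small RNA was ligated to 3′ and then 5′ adapters, amplified, gel-selected and sequenced from a single end, per the labels' protocols. Bowtie 0.12.9 and DESeq2 appear as tools per the submitters' processing notes. Strand use, the handling of reads that match several places, the build and the miRBase release are not given in the sources used here.

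Low counts were removed with filterByExpr, at a minimum count of 10 and a minimum total of 15. After TMM scaling, features were tested with the two-sided quasi-likelihood F-test of edgeR 4.0.16 in R 4.3.3 on group means, with Benjamini-Hochberg adjustment over all tested features and a threshold of 0.05. All 4 members passed the filter. The 9 ESC libraries were fitted together for comparisons among ESC (757 features), and all 12 for those with RS (806 features). The 3 haploid lines weighed equally. Family sums replaced their members in the same fits. Shares were compared by exact permutation over libraries, with exact Clopper-Pearson intervals at 95%. PCR copies are not independent molecules, so intervals and the floor of 3 counts cover counting error only.

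Named features were the members, the other arms and paralogs of their precursors, the list of other Ezh2-targeting microRNAs, and for each member the 3 others with the highest Pearson r of log2 CPM (prior count 2). Members and lists were chosen with earlier results of these data known. Alternatives were RLE, upper-quartile and total-count scaling, TMM factors without the miR-290 cluster, other filters, DESeq2 1.42.0, other sets of libraries, counts summed per line, a GC correction by loess in each library, the replicate block and leaving out each library. RefSeq gave a sequence for 1158 of 1549 features, and for 609 of the 757 tested among ESC.

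On simulated counts for haploid lines against R1, with 757 features, the test recovered 100% of changes of log2 size 3 and 89.7% of size 1.5. For haploid lines against RS, with 806 features, it recovered 78.5% and 65.3%. The simulation gave all groups a common mean profile and a single dispersion, and changed only part of the features in the haploid libraries. It held no GC trend between groups, so the recovery in the real data can differ from these rates. Libraries of a group differed beyond sampling noise, with chi-square per degree of freedom of 52.6 or more. The labels describe them as independent replicates collected by sorting. Separate cultures or animals are not given, so the p-values reflect how these samples vary, which may be technical variation, and not how diploid lines vary.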

Additional observations from a re-analysis of the deposited data

How the results depend on the processing

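The miR-101 sum was lower in the haploid lines than in R1 and than in RS under every alternative run, with log2 differences from -5.11 to -2.44 against R1 and from -3.75 to -1.5 against RS. Its increase in R1 over RS was not called with upper-quartile scaling (0.91). The miR-26 sum was less stable. With all 12 libraries in the fit it stood at -0.21 for the haploid lines against R1, -0.45 for A129-2, -0.11 for A129-6 and -0.06 for A129-17, none of them called. With the GC correction miR-26a-5p turned to 0.69, 0.39, 0.69 and 0.99 in the same order, not called in A129-2 (adjusted p = 0.192). miR-26b-5p turned to 1.44, 1.61, 1.17 and 1.54. The miR-26 sum turned to 0.73, 0.45, 0.71 and 1.02, of which that of A129-2 was not called (adjusted p = 0.135). For A129-17 against R1 it was also not called with upper-quartile scaling (-0.55) or without either R1 library, and ranged from -1.0 to -0.89 with each library left out. Against RS it was called lower in the haploid lines with upper-quartile scaling (-1.97), total counts (-2.04) and DESeq2 (-0.78), and with the GC correction miR-26b-5p turned to 0.92. The cause of these changes was not tested. Among the other microRNAs, miR-98-5p turned to 3.16 against R1 with the GC correction. Against RS, let-7c-5p turned to -1.24 with upper-quartile scaling and -1.39 with total counts, and miR-30d-5p to -1.48 and -1.73.

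The median log2 difference of all features against R1 moved by -0.24 with RLE scaling, 0.31 with upper-quartile scaling, -0.12 with total counts, 0.85 with all 12 libraries and 0.20 with the GC correction. Against RS it moved by -1.56 with upper-quartile scaling and -1.68 with total counts. The haploid lines differed from each other in 29 features, but in 0 with total counts, 82 with no filter, 3 with the stricter filter, 85 in DESeq2 and 2 with all 12 libraries, and in 0 to 80 with each library left out. The replicate numbers did not pair the samples, with correlations of same-numbered libraries from -0.156 to 0.135. With the replicate block 72 features differed between the lines. Among the ESC libraries only A129-6 has a replicate 3, so there the block takes up that library. It thus acts much like leaving that library out, after which 80 features differed. The calls of the 4 members against R1 and of both miR-101 members against RS held with the replicate block. For R1 this adds little to leaving that library out. The RS libraries are shallow, and there is 1 diploid line, so differences between diploid lines cannot be told apart from those between haploid and diploid cells.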
